A study of Mus musculus with 12 samples.

Results

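The response to cold shared by brown fat (brown adipose tissue, BAT) and the white fat under the skin (subcutaneous white adipose tissue, sWAT) was described from 12 RNA sequencing libraries, 6 of them from cold mice and 6 from thermoneutral mice. The mice were wild-type C57Bl/6 males aged 8 to 12 weeks, and the labels give no transgene and no agent. They were kept for 72 hours at 4 °C (cold) or at 30 °C (thermoneutrality, where a mouse needs no extra heat), with 10 of the 20 mice at each temperature. The groups were BAT cold, BAT thermoneutral, sWAT cold and sWAT thermoneutral, with 3 libraries each. Whether each library is 1 mouse or a pool of mice is not stated, so the p-values measure the spread between these libraries, which may be technical. A gene was counted as changed in both depots when it passed an adjusted p of 0.05 in 3 fits with the same sign: the average effect of cold over the 12 libraries with tissue as a factor, BAT alone and sWAT alone. Among 14219 genes tested in all 3 fits, 561 were higher in cold (3.95%) and 231 were lower (1.62%). Levels are given as CPM (counts scaled to a common library size), in the order of libraries 1, 2 and 3, and changes as log2 fold changes of cold against thermoneutral with the standard error. Each p-value comes from the quasi-likelihood test of edgeR and was adjusted over all genes in the fit (Benjamini-Hochberg).

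In the cold, sympathetic nerves release noradrenaline onto fat cells, beta-adrenergic receptors raise cyclic AMP (cAMP), and stored triglyceride is broken down to fatty acids. In brown fat cells these fatty acids fuel mitochondria and open Ucp1, the carrier that lets protons back across the inner membrane so that energy leaves as heat. White fat under the skin holds few such cells at thermoneutrality, and fat cells that express Ucp1, called beige cells, appear there in the cold. A comparison across both depots asks which genes respond to cold in a tissue that is already brown and in one that is mostly white.

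The libraries held 27117934 to 56243016 counts. A first difference set the 3 thermoneutral libraries of sWAT apart. Mitochondrially encoded genes took 0.181 to 0.307% of their counts against 17.6 to 53.8% in the other 9 libraries, and 82 ribosomal protein genes took 7.17 to 8.14% against 0.323 to 1.83%. Regressed on the GC content of the genes, log2 CPM had a slope of 0.866 to 1.46 per 10 percentage points in these libraries, against −0.743 to 0.293 in the others. In sWAT this difference in composition and the effect of temperature cannot be told apart, and without these 3 libraries only the comparison in BAT remains. Position markers of the depots showed a second difference. Zic1, a transcription factor of interscapular brown fat, was at 3.89 to 30.5 CPM in the 6 BAT libraries and at 0 to 0.0981 CPM in sWAT thermoneutral libraries, but at 0.0937, 9.32 and 6.75 CPM in sWAT cold libraries 1, 2 and 3. Hoxc10, a marker of posterior depots, was at 0 in all 6 BAT libraries, at 6.30 to 14.3 CPM in sWAT thermoneutral libraries and at 21.8, 6.84 and 7.73 CPM in sWAT cold libraries. Hoxc8 and Hoxa9 were, like Hoxc10, highest in sWAT cold library 1, at 44.8, 14.2 and 19.6 CPM and at 15.2, 4.84 and 7.54 CPM. In sWAT thermoneutral libraries they were at 9.95 to 17.1 and 7.91 to 13.6 CPM, and in BAT at 2.82 to 5.94 and 0.667 to 2.29 CPM. Meox2 and Lhx8 did not set libraries 2 and 3 apart as Zic1 did. Meox2, at 14.8 to 56.7 CPM in BAT, was at 17.7, 12.2 and 12.9 CPM in sWAT cold libraries. Lhx8 was at 1.5, 2.33 and 1.85 CPM there, against 1.29 to 2.04 CPM in sWAT thermoneutral and 1.15 to 4.0 CPM in BAT libraries. Hoxc9 was at 3.77, 2.84 and 2.23 CPM in sWAT cold libraries. Its levels were 8.9 to 16.2 CPM in sWAT thermoneutral and 0 to 0.0357 CPM in BAT libraries. Tbx15 was at 31.2, 41.7 and 45.6 CPM in sWAT cold libraries, above every other library. It was at 5.52 to 10.2 CPM in sWAT thermoneutral and 6.96 to 22.6 CPM in BAT libraries. Zic1, singled out after its values were seen, was thus within its BAT range in 2 of the 6 sWAT libraries, cold 2 and 3, and its part in the shared response was not tested. When these 2 libraries were left out, a choice made after seeing the data in which sWAT cold library 1 is assumed to vary like the rest, 313 genes were higher and 123 lower in both depots, and 311 of the 561 and 117 of the 231 kept their call. Skeletal muscle markers also differed between libraries. They summed to 206.1–6853 CPM in sWAT thermoneutral, 11720–30130 CPM in sWAT cold, 5476–19080 CPM in BAT thermoneutral and 7043–10310 CPM in BAT cold libraries, and their part in the results was not tested.

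Increases made up 70.8% of the calls shared by both depots, a share that was 54.8% with upper quartile scaling and 50.5% by sign alone. The average effect of cold was higher for 2307 (14.1%) and lower for 2727 (16.7%) of 16365 genes tested, 30.8% in all. Each depot alone gave a different scale: 996 higher (6.82%) and 781 lower (5.34%) of 14612 genes in BAT, 12.2% in all, and 3950 higher (25.1%) and 3784 lower (24.1%) of 15731 genes in sWAT, 49.2% in all. Of 962 genes higher in BAT and tested in all 3 fits, 561 (58.3%) were also higher in sWAT and 27 (2.81%) were lower there, where 27.5% of all genes were higher in sWAT. Of 709 genes lower in BAT, 231 (32.6%) were also lower in sWAT and 87 (12.3%) were higher, where 21.6% of all genes were lower in sWAT. The same 561 and 231 genes made up 14.4% and 7.53% of the genes that rose or fell in sWAT, 3904 and 3069. Over all 14219 genes the log2 fold changes of the depots had a Pearson correlation of 0.305 and a Spearman correlation of 0.269, given as a description since genes are not independent and the members of a depot share libraries.

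The share of counts held by the genes called in both depots differed between temperatures. The 561 higher genes held 7.46 to 8.80% of nuclear-encoded counts in BAT thermoneutral libraries and 22.7 to 23.9% in BAT cold libraries, and 4.09 to 5.46% in sWAT thermoneutral libraries and 12.0, 17.5 and 15.9% in sWAT cold libraries 1, 2 and 3. The 231 lower genes fell from between 0.593 and 1.10% to between 0.140 and 0.164% in BAT, and from between 1.42 and 2.34% to between 0.340 and 0.502% in sWAT. These shares are a description, since the genes were chosen on the same libraries. The median log2 fold change of the higher genes was 1.61 in BAT and 1.92 in sWAT, and that of the lower genes was −1.76 and −1.74. A change of at least 4-fold in each depot was seen in 136 higher and 38 lower genes, and of at least 2-fold in 478 and 202. In bulk tissue, fewer cells of a type and less RNA per cell cannot be told apart, in these and all further results.

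**Figure D1:**
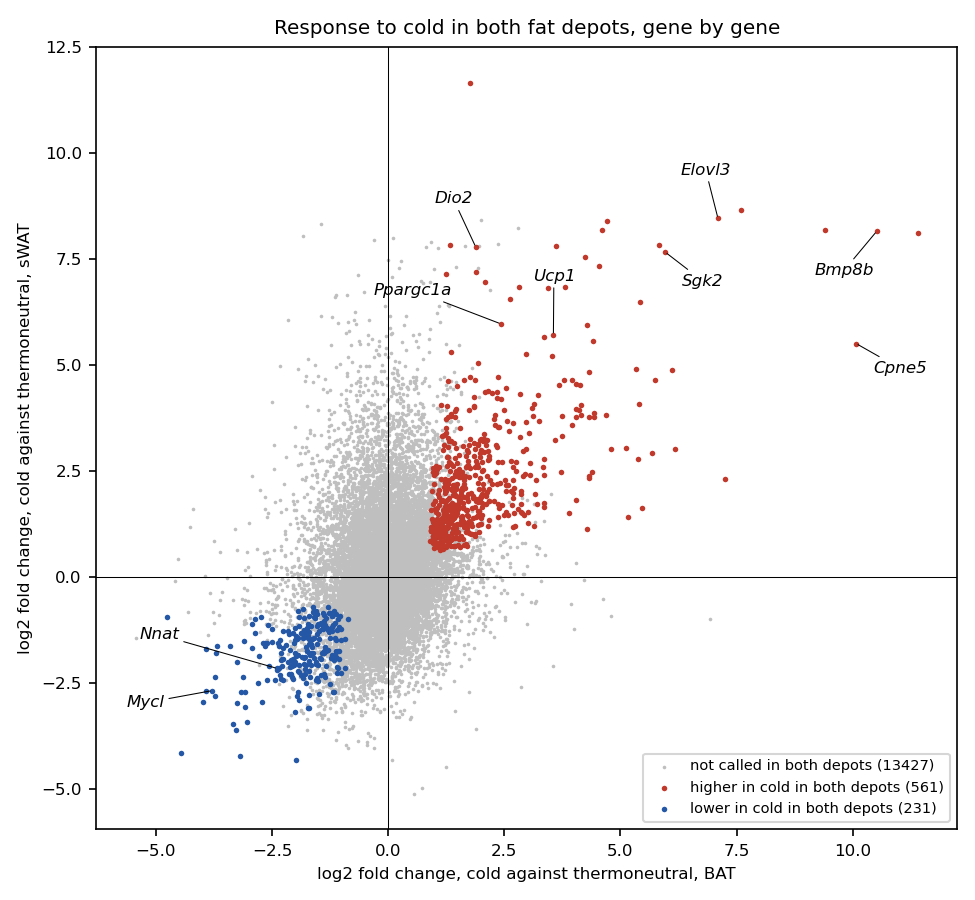
Log2 fold change of cold against thermoneutral in BAT (horizontal axis) and in sWAT (vertical axis) for the 14219 genes tested in all 3 fits, 1 point a gene. Red points are the 561 genes higher and blue points the 231 genes lower in both depots; Bmp8b, Elovl3 and Sgk2 lie far out along both axes, and Dio2 lies higher on the sWAT axis than on the BAT axis.

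Promoter sequences are shown for 4 of the shared genes, because the promoter of Ucp1 and Slc25a34 holds a core site read by nuclear receptors such as the oestrogen-related receptors, and that of Dio2 and Btg2 holds the full cAMP response element (CRE). Each is the 250 bases before the start of the gene in RefSeq, 5′ to 3′ on the gene's own strand, on GRCm38.p6, with the matched letters in capitals. The RefSeq start of Dio2 lies upstream of the GENCODE gene whose coordinates are given with its levels. They lie at chr8:83290098-83290347 (plus strand), chr4:141623835-141624084 (minus strand), chr12:90739039-90739288 (minus strand) and chr1:134079156-134079405 (minus strand).

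Ucp1: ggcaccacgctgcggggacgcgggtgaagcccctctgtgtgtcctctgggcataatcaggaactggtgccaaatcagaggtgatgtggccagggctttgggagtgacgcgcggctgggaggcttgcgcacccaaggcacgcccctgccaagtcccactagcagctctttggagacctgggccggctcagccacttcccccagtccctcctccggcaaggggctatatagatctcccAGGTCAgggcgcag
Slc25a34: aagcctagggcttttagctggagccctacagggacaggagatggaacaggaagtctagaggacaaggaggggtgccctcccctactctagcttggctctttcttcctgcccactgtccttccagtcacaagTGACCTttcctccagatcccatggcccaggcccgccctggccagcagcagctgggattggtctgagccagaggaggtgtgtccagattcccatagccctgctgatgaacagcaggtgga
Dio2: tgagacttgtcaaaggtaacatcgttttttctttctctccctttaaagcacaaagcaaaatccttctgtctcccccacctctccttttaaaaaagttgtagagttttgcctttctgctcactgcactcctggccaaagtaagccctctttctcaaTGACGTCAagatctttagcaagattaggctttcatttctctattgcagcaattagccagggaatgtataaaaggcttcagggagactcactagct
Btg2: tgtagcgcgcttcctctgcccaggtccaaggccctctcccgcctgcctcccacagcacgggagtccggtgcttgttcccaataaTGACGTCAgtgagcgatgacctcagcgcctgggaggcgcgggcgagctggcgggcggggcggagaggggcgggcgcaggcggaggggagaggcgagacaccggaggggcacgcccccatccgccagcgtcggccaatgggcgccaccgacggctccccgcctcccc

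Ucp1, Slc25a34 and Dio2 rose and Btg2 fell in both depots, so the same 8 letters, TGACGTCA, stood before a gene that rose and before one that fell. Btg2 also holds the core site, on the other strand at bases −150 to −145 from its start, left in lower case here, so that site too stood before genes of either direction. A promoter from 250 bases before to 50 bases after the start was matched for 10623 of the 14219 genes, 430 of them higher and 177 lower in both depots. 10 motifs were searched on both strands. The core site, AGGTCA, was in 18.1% of the promoters of higher genes and 13.6% of those of lower genes, and in 12.3% of all. The CRE was in 3.49 and 3.39%, and in 3.17% of all. The E-box CACGTG was in 12.3 and 6.78%, and in 10.0% of all, and the NF-Y box CCAAT in 40.7 and 44.6%, and in 38.4% of all. The AP-1 site TGANTCA was in 6.98% of the promoters of higher genes and 9.60% of those of lower genes, and in 5.0% of all. The other motifs were the shorter CRE form TGACGT, which lies within the CRE (11.6 and 9.04%, and 11.6% of all), the sterol response core TCACCCCA (2.09 and 1.69%, and 1.36%), the NRF1 site (0.930 and 2.82%, and 1.97%), the ERR site TCAAGGTCA (0.465 and 0.565%, and 0.301%) and the DR1 repeat of the core site with 1 base between (0 and 0%, and 0.0188%), the last 2 of which hold the core site. A match is a description of letters and not of a bound site.

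Most genes of the thermogenic list rose in both depots. Of 30 thermogenic genes tested, 18 were higher in both depots (60%, against 3.95% of all genes) and 0 were lower, with a median log2 fold change of 1.48 in BAT and 3.46 in sWAT against −0.03 and 0.12 over all genes. Ucp1 (chr8:83290352-83298452 in mm10) was at 1397, 1794 and 2550.2 CPM in BAT thermoneutral and 22940.1, 22556 and 20029 CPM in BAT cold libraries, and at 379.6, 107 and 41.3 CPM in sWAT thermoneutral and 3244, 13246 and 11638 CPM in sWAT cold libraries. The groups did not overlap in either depot, and sWAT cold library 1 was the lowest of its group. The change was 3.56 ± 0.38 in BAT (adjusted p = 0.0019), 5.72 ± 0.98 in sWAT (adjusted p = 0.00203) and 4.62 ± 0.70 on average (adjusted p = 0.000765). With sWAT cold libraries 2 and 3 left out it was 4.23 in sWAT with an adjusted p of 0.0540, short of the threshold. Elovl3 (chr19:46131897-46135694), an elongase of very long chain fatty acids, went from 6.26–10.1 to 1045–1161 CPM in BAT and from 0.647–1.69 to 112, 609 and 556 CPM in sWAT, a change of 7.10 ± 0.36 and 8.47 ± 0.81 (average 7.74 ± 0.55, adjusted p = 1.59e-05). Without sWAT cold libraries 2 and 3 its change in sWAT was 6.59 (adjusted p = 8.6e-05). The exons of Elovl3 overlap those of Pitx3 on the other strand, and the strand setting of the counts is not given in the sources used here.

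Both regulators that had to be reported whatever their values, Dio2 and Ppargc1a, rose in each depot and more in sWAT. Dio2 (chr12:90724552-90738438), the deiodinase that makes active thyroid hormone inside the cell, was at 58.0, 90.9 and 140.3 CPM in BAT thermoneutral and 238, 304 and 495 CPM in BAT cold libraries. The levels of Dio2 in sWAT were 1.15, 0.711 and 0.495 CPM in thermoneutral and 99.3, 231 and 192 CPM in cold libraries. Its level was low only in sWAT at thermoneutrality, where all 3 libraries lay below every other library. The change was 1.89 ± 0.42 in BAT (adjusted p = 0.0241) and 7.79 ± 0.52 in sWAT (adjusted p = 0.000174), and the test of the difference gave an adjusted p of 0.000356. Ppargc1a (chr5:51454250-51567726), the coactivator of mitochondrial biogenesis, went from 30.4, 51.3 and 108 to 193, 409 and 389 CPM in BAT and from 2.46, 2.28 and 1.75 to 66.3, 215 and 130.2 CPM in sWAT. Its change was 2.43 ± 0.51 and 5.98 ± 0.48 (adjusted p = 0.0202 and 0.000198), and the difference had an adjusted p of 0.00383. The calls of both genes in BAT were lost without BAT cold library 2 or without BAT thermoneutral library 1 or 2, with adjusted p up to 0.0991 for Dio2 and 0.0938 for Ppargc1a. The average change of Dio2, 4.72 ± 1.17, became 5.53 to 5.65 without one of the BAT cold libraries and 3.75 to 3.85 without one of the sWAT thermoneutral libraries.

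Other members of the same list covered secreted, transcriptional and lipid-handling roles. Bmp8b (chr4:123105165-123132099), a secreted growth factor that raises the response of brown fat to nerves, was at 0.0357, 0 and 0.0234 CPM in BAT thermoneutral and 28.7, 40.5 and 27.8 CPM in BAT cold libraries. In sWAT, Bmp8b stood at 0, 0.0981 and 0 CPM in thermoneutral and 1.26, 15.9 and 11.3 CPM in cold libraries. The thermoneutral groups held 2 and 4 counts in all, so the fitted average of 9.30 ± 0.87 depends on the prior count, and it was 10.68 without sWAT thermoneutral library 2. The ratio of pooled levels was 1760 in BAT (95% counting interval 486 to 14500) and 275 in sWAT (107 to 1010); such intervals cover counting error only. Acot11, a thioesterase of long acyl-CoAs, went from 96.8–139.7 to 1597–1694 CPM in BAT and from 10.3–49.4 to 219.5, 939 and 793 CPM in sWAT (3.78 ± 0.31 and 4.65 ± 0.77). Its call in sWAT was lost without sWAT cold libraries 2 and 3 (adjusted p = 0.0598). Esrrb, one of the oestrogen-related receptors, was low throughout and went from 0.363–0.959 to 8.95–11.2 CPM in BAT and from 0.0981–0.234 to 1.11–6.03 CPM in sWAT (4.04 ± 0.41 and 4.55 ± 0.70). The list's other shared members were Esrrg, Letmd1, Otop1, Kcnk3, Them4, S100b, Clstn3, Slc27a2, Cpt1b, Fabp3 and Gk.

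Cycles that spend ATP on creatine or calcium are known as sources of heat that need no Ucp1. Of their 20 tested genes, 3 were higher in both depots (15.0%, against 3.95% of all genes) and 0 lower. Atp2a2, the calcium pump of the endoplasmic reticulum, went from 139–163 to 451–530.2 CPM in BAT and from 74.8–87.9 to 176–355 CPM in sWAT (1.73 ± 0.26 and 1.79 ± 0.32). Alpl, a phosphatase of the creatine cycle, rose by 2.56 ± 0.28 and 3.68 ± 0.67. Ckb, the brain-type creatine kinase, was at 31.6, 30.3 and 14.4 CPM in BAT thermoneutral and 284, 327 and 65.8 CPM in BAT cold libraries. The levels of Ckb in sWAT were 40.0, 37.3 and 29.5 CPM in thermoneutral and 41.6, 166 and 152 CPM in cold libraries. sWAT cold library 1 was near the thermoneutral level of Ckb. Its change was 3.19 ± 0.61 in BAT and 1.74 ± 0.46 in sWAT; the latter was 0.26 with an adjusted p of 0.584 when sWAT cold libraries 2 and 3 were left out. The BAT call of Ckb was lost without BAT thermoneutral library 1 or 2 (adjusted p up to 0.0639). Skeletal muscle markers were likewise higher in sWAT cold than in sWAT thermoneutral libraries, and their ranges overlapped in BAT.

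Of 27 adrenergic and cAMP signalling genes, 5 were higher in both depots (18.5%, against 3.95% of all) and 1 lower (3.70%, against 1.62%). Adcy3 and Adcy10, which encode enzymes that make cAMP, rose in both. Adcy3, a membrane adenylyl cyclase, was at 95.1, 104 and 74.6 CPM in BAT thermoneutral and 1262, 1401 and 871 CPM in BAT cold libraries. In sWAT, Adcy3 stood at 69.7, 42.7 and 42.6 CPM in thermoneutral and 121, 891 and 565 CPM in cold libraries (3.74 ± 0.33 in BAT and 3.33 ± 0.66 in sWAT). Adcy10, the soluble cyclase activated by bicarbonate, rose from 1.96–3.72 to 38.7–52.5 CPM in BAT and from 1.08–1.54 to 12.8–25.3 CPM in sWAT, and its average change of 3.97 ± 0.26 had an adjusted p of 1.38e-05. Gpr3, a receptor that couples to the stimulatory G protein without a ligand, was at 0.0559–0.281 CPM in BAT thermoneutral and 0.436–1.93 CPM in BAT cold, and at 0.0190–0.0736 and 0.393–1.08 CPM in sWAT. These levels rest on 16 and 5 counts in the thermoneutral groups, and the BAT call of Gpr3 was lost when BAT cold library 1 or 2 or BAT thermoneutral library 1 or 2 was left out (adjusted p up to 0.120). The average change of Gpr3, 3.45 ± 0.57, was 4.08 without BAT thermoneutral library 3. Gnas, the stimulatory G protein subunit, and Adra1a, an alpha-1 receptor, were the other higher members.

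A list drawn up for secreted factors of thermogenic fat had 6 of 28 tested genes higher in both depots (21.4%, against 3.95% of all). They were Bmp8b, Fgf21, Fgf9, S100b, Kng2 and Mtx2. Mtx2 is metaxin 2, a protein of the mitochondrial outer membrane and not a secreted factor, which leaves 5. S100b lost its BAT call without BAT cold library 1 or 2 or BAT thermoneutral library 1 or 2 (adjusted p up to 0.0711). Fgf21, a hormone of fasting and cold, was at 0.0713, 0.335 and 0.0234 CPM in BAT thermoneutral and 3.29, 2.81 and 0.939 CPM in BAT cold libraries. The levels of Fgf21 in sWAT were 0.187, 0.196 and 0 CPM in thermoneutral and 0.937, 1.40 and 3.61 CPM in cold libraries. Its change was 4.04 ± 0.82 and 3.98 ± 0.92 (adjusted p = 0.0182 and 0.00738) on 15 and 16 thermoneutral counts. The call was lost without BAT cold library 1 or 2 or BAT thermoneutral library 1 (adjusted p in BAT up to 0.0835), and without sWAT cold libraries 2 and 3 together. Fgf9, another fibroblast growth factor, went from 0.535–0.632 to 2.09–4.09 CPM in BAT and from 0.0234–0.147 to 0.768–2.67 CPM in sWAT. Of the white fat hormones, Lep (leptin) and Adipoq (adiponectin) were not called in both depots. Lep fell in BAT (−2.60 ± 0.32, adjusted p = 0.00314), while sWAT gave 0.07 ± 0.49 (adjusted p = 0.91). For Adipoq the log2 fold changes were −1.38 ± 0.43 in BAT (adjusted p = 0.0724) and −0.30 ± 0.32 in sWAT (adjusted p = 0.447).

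Some genes for making fatty acids and some for burning them rose in the same libraries. De novo lipogenesis, which builds fatty acids from acetyl-CoA, had 7 of 24 tested genes higher in both depots (29.2%, against 3.95% of all genes). Of the same 24, 0 were lower in both, 1 was lower in BAT and 1 in sWAT. Acly, which makes cytosolic acetyl-CoA from citrate, went from 613, 972 and 827 to 5630.0, 4924 and 4822 CPM in BAT and from 1610.3, 820.3 and 526 to 2684, 3379 and 2424 CPM in sWAT. The increase of Acly was 2.71 ± 0.32 in BAT and 1.51 ± 0.47 in sWAT, and its sWAT call was lost without sWAT cold library 2 or 3 or sWAT thermoneutral library 2 or 3 (adjusted p up to 0.104). Elovl6, which lengthens palmitate, went from 481–693 to 1685–2310.2 CPM in BAT and from 49.3–57.5 to 562–1050.1 CPM in sWAT, and the larger change in sWAT, 4.02 ± 0.37 against 1.85 ± 0.30, passed the test of the difference (adjusted p = 0.00435). Scd2, a desaturase, rose by 2.17 ± 0.27 and 1.79 ± 0.35, and Elovl5, an elongase of polyunsaturated fatty acids, by 1.22 ± 0.24 and 1.67 ± 0.22. The call of Elovl5 in BAT was lost without BAT cold library 1 or 2 or BAT thermoneutral library 1 or 2 (adjusted p up to 0.0753). Fasn, the fatty acid synthase itself, was not in the shared set. It rose in BAT by 1.94 ± 0.40 (adjusted p = 0.0179), while sWAT gave 1.08 ± 0.58 (adjusted p = 0.151). In sWAT the cold libraries of Fasn, at 13709.9, 25249 and 16137 CPM, overlapped the thermoneutral ones, at 15516, 6733 and 3637 CPM.

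Triglyceride synthesis and glycerol use had 8 of 22 tested genes higher in both depots (36.4%, against 3.95% of all genes) and 0 lower. Gk, the glycerol kinase that returns glycerol to triglyceride, was at 29.5, 34.5 and 34.5 CPM in BAT thermoneutral and 259, 191 and 524 CPM in BAT cold libraries. In sWAT, Gk stood at 5.71, 3.36 and 2.05 CPM in thermoneutral and 138, 185 and 239 CPM in cold libraries. Cold sWAT reached a level of Gk above every thermoneutral BAT library, and the change was larger in sWAT, 5.66 ± 0.47 against 3.35 ± 0.42 in BAT (adjusted p of the difference = 0.0122). Gpd1, which makes glycerol 3-phosphate from a glycolytic intermediate, was among the most abundant, from 3104–4535 to 25439–31957 CPM in BAT and from 1169.9–3596 to 7659.6–16534 CPM in sWAT (2.90 ± 0.35 and 2.40 ± 0.53). Without sWAT cold libraries 2 and 3 the sWAT change of Gpd1 was 1.75 (adjusted p = 0.0538). Gpam, the first acyltransferase of the pathway, rose by 2.71 ± 0.54 and 2.10 ± 0.37, and Lpin1, a phosphatidate phosphatase, by 2.00 ± 0.30 and 1.92 ± 0.35. The BAT call of Gpam was lost without BAT cold library 2 or BAT thermoneutral library 2 (adjusted p up to 0.0813).

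Lipolysis and lipid uptake had 6 of 28 tested genes higher in both depots (21.4%, against 3.95% of all genes). The list had 1 lower (3.57%, against 1.62%), Hilpda, an inhibitor of the triglyceride lipase. Acsl5, which activates fatty acids, went from 107–229 to 1677–2449.8 CPM in BAT and from 25.5–35.0 to 169.7, 964 and 975 CPM in sWAT (3.68 ± 0.39 and 4.53 ± 0.65). Lipa, the lysosomal acid lipase, rose by 2.18 ± 0.35 and 2.79 ± 0.35, and Plin2, a coat protein of lipid droplets, by 2.11 ± 0.27 and 1.96 ± 0.38. Mitochondrial fatty acid oxidation had 7 of 30 tested genes higher (23.3%) and 0 lower, among them Hadha, a subunit of the trifunctional protein, which went from 652–1029.8 to 3121–3404 CPM in BAT and from 118–342 to 805–2055 CPM in sWAT. Cpt2, the inner-membrane carnitine palmitoyltransferase, rose by 1.88 ± 0.31 and 1.84 ± 0.39, Crat, the carnitine acetyltransferase, by 1.61 ± 0.29 and 1.66 ± 0.37, and Acad11, an acyl-CoA dehydrogenase, by 1.57 ± 0.29 and 1.32 ± 0.29. These 3 lost their sWAT call without sWAT cold libraries 2 and 3, with adjusted p of 0.0648, 0.0581 and 0.0918. Crat also lost its BAT call without BAT cold library 1 or 2 or BAT thermoneutral library 2 (adjusted p up to 0.0682), and Acad11 without BAT cold library 2 or BAT thermoneutral library 1 or 2 (up to 0.0601). Cidea, which enlarges lipid droplets, was not called in both. Its log2 fold change was 0.16 ± 0.29 in BAT (adjusted p = 0.753) and 3.09 ± 0.55 in sWAT (adjusted p = 0.0023), and the difference had an adjusted p of 0.00585.

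Peroxisomal lipid metabolism shortens very long and branched chains. Of its 30 tested genes, 6 were higher in both depots (20.0%, against 3.95% of all genes) and 0 lower. Ehhadh, the bifunctional enzyme of peroxisomal oxidation, went from 58.0, 53.1 and 59.5 to 169, 152 and 169 CPM in BAT and from 52.3, 27.0 and 42.7 to 156, 156 and 198 CPM in sWAT, so that the cold libraries of both depots overlapped. Its change was 1.57 ± 0.24 and 2.06 ± 0.32. Acox2, an oxidase of branched chains, rose from 0.866–1.43 to 5.64–6.54 CPM in BAT and from 0.294–0.655 to 1.52–3.94 CPM in sWAT, and its sWAT change was 1.82 (adjusted p = 0.0501) without sWAT cold libraries 2 and 3. Carriers of the SLC25 family had 5 of 39 tested genes higher (12.8%, against 3.95% of all) and 1, Slc25a25, lower (2.56%, against 1.62%). Slc25a34 (chr4:141618824-141623821), a carrier of the inner mitochondrial membrane, was at 1.85, 2.23 and 4.47 CPM in BAT thermoneutral and 169, 167 and 109.7 CPM in BAT cold libraries. The levels of Slc25a34 in sWAT were 5.13, 2.30 and 1.64 CPM in thermoneutral and 31.4, 119 and 81.2 CPM in cold libraries (5.74 ± 0.45 and 4.66 ± 0.61). Slc25a17, a carrier of the peroxisome membrane, rose by 2.17 ± 0.27 and 2.85 ± 0.31.

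Some genes of glucose use rose. Of 30 tested genes of uptake and glycolysis, 11 were higher in both depots (36.7%, against 3.95% of all genes) and 0 lower. The median log2 fold change of the list was 1.06 in BAT and 1.56 in sWAT. Hk2, the hexokinase that traps glucose in the cell, went from 233, 296 and 323 to 1103, 1179 and 774 CPM in BAT and from 92.9, 76.7 and 56.1 to 240.0, 793 and 490.3 CPM in sWAT (1.89 ± 0.30 and 2.74 ± 0.46). Pfkp, a phosphofructokinase, rose by 2.68 ± 0.27 and 1.88 ± 0.30, Gpi1, the isomerase between them, by 1.97 ± 0.28 and 1.88 ± 0.46, and G6pdx, the entry to the pentose phosphate pathway, by 1.62 ± 0.29 and 2.37 ± 0.33. Without sWAT cold libraries 2 and 3, the log2 fold change of Gpi1 was 1.09 in sWAT (adjusted p = 0.115), and G6pdx lost its BAT call without BAT cold library 2 or BAT thermoneutral library 2 (adjusted p up to 0.0603). Pgd, Slc16a1, Pgam1, Pkm, Pfkl, Gapdh and Ldha were the other higher members. Glycogen metabolism had 5 of 20 tested genes higher (25%) and 0 lower. Gys2, the liver-type glycogen synthase, went from 11.9, 14.2 and 57.8 to 142, 172 and 213 CPM in BAT and from 8.35, 7.80 and 6.66 to 90.4, 101 and 92.8 CPM in sWAT, with BAT thermoneutral library 3 above the other 2 of its group. The BAT call of Gys2 (2.70 ± 0.60) was lost without BAT cold library 1 or 2 or BAT thermoneutral library 1 or 2 (adjusted p up to 0.0959), while the sWAT change was 3.64 ± 0.24.

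The citric acid cycle and pyruvate entry had 7 of 32 tested genes higher in both depots (21.9%, against 3.95% of all) and 0 lower. Ogdh, a subunit of the 2-oxoglutarate dehydrogenase, went from 1131–1874 to 5046–6039.6 CPM in BAT and from 168–384 to 1507–3229 CPM in sWAT (2.00 ± 0.34 and 3.27 ± 0.50). Pdp2, the phosphatase that activates pyruvate dehydrogenase, rose by 1.37 ± 0.29 and 2.34 ± 0.26. The BAT calls were lost without BAT cold library 2 for Ogdh (adjusted p up to 0.0518) and without BAT cold library 1 or 2 or BAT thermoneutral library 1 or 2 for Pdp2 (up to 0.0796). Breakdown of branched-chain amino acids had 4 of 23 tested genes higher (17.4%) and 0 lower: Dbt, Pcca, Mcee and Slc25a44, the mitochondrial carrier of these amino acids. Pcca, a subunit of propionyl-CoA carboxylase, went from 82.3–142 to 338–417 CPM in BAT and from 19.6–22.1 to 109–246 CPM in sWAT. The change of Pcca was larger in sWAT, 3.26 ± 0.36 against 1.76 ± 0.30 (adjusted p of the difference = 0.0252). Dbt, a subunit of the branched-chain dehydrogenase, rose by 1.98 ± 0.35 and 3.24 ± 0.36, and its BAT call was lost without BAT thermoneutral library 2 (adjusted p = 0.0570). Mcee and Slc25a44 lost theirs without BAT cold library 1 or 2 or BAT thermoneutral library 1 or 2 (adjusted p up to 0.0974 and 0.0880), and their call in both depots without sWAT cold libraries 2 and 3.

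Cholesterol synthesis had 8 of 24 tested genes higher in both depots (33.3%, against 3.95% of all genes) and 0 lower. The list's median log2 fold change was 0.98 in BAT and 1.14 in sWAT. Sqle, the squalene epoxidase, was at 4.92, 5.31 and 3.65 CPM in BAT thermoneutral and 27.4, 22.0 and 26.2 CPM in BAT cold libraries. In sWAT, Sqle stood at 5.66, 7.53 and 4.79 CPM in thermoneutral and 16.8, 16.2 and 16.7 CPM in cold libraries. Its thermoneutral levels overlapped between depots, and cold and thermoneutral groups did not overlap in either. The change of Sqle was 2.49 ± 0.28 and 1.47 ± 0.26, that of Sc5d, a late desaturase of the pathway, 2.00 ± 0.30 and 3.01 ± 0.30, and that of Hsd17b7, a sterol reductase, 2.53 ± 0.38 and 2.30 ± 0.30. In sWAT cold library 1, Sc5d and Hsd17b7 were the highest of the group, at 240.5 and 13.9 CPM. Nsdhl, Hmgcs1 and Cyp51 were among the other higher members.

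**Figure D2:**
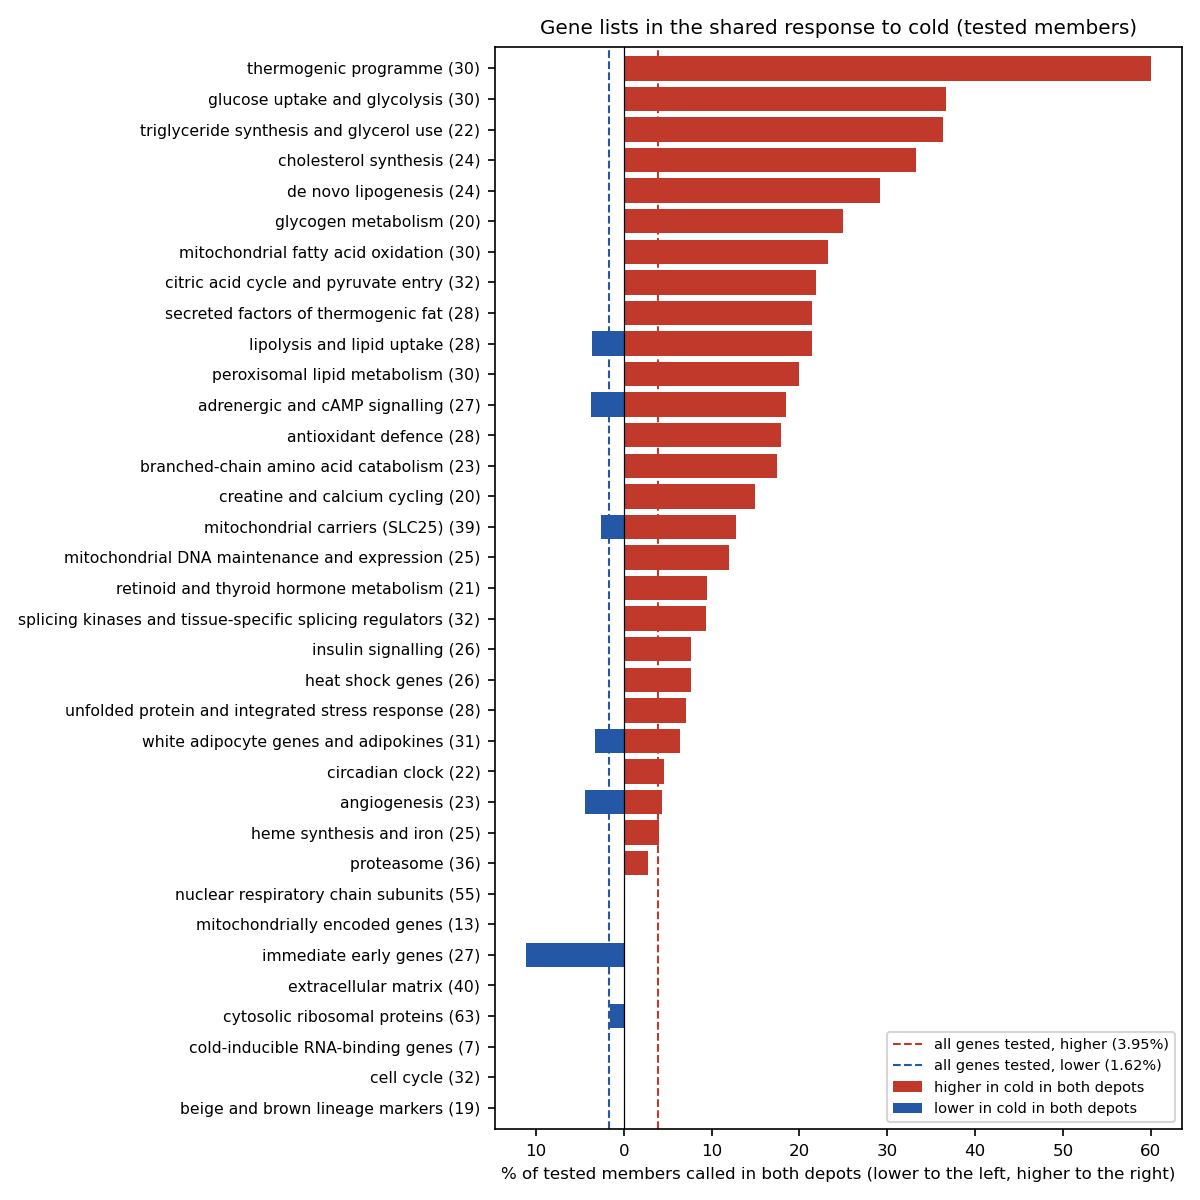
Share of the tested members of each of 35 functional gene lists that were called in both depots, in percent, with genes higher in cold to the right in red and genes lower to the left in blue, and the number tested in brackets. Dashed lines mark the share over all 14219 genes, 3.95% higher and 1.62% lower; the thermogenic list reaches 60%, and the immediate early list is the longest bar on the lower side at 11.1%.

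Among genes with a mean log2 CPM from 3 upwards, no overlap of groups and no predicted gene model, the 12 with the largest shared increase, ranked by the smaller change of the depots, were Bmp8b, Elovl3, Sgk2, Cpne5, Cend1, Slc25a34, Dhrs9, Ttc25, Arhgef19, Chrna2, Hephl1 and Adcy10. All 12 kept their call when any single library was left out. Sgk2, a serum- and glucocorticoid-regulated kinase, was at 0.499, 0.307 and 0.351 CPM in BAT thermoneutral and 23.2, 23.6 and 23.2 CPM in BAT cold libraries. The levels of Sgk2 in sWAT were 0.0702, 0.0736 and 0.0380 CPM in thermoneutral and 4.33, 16.1 and 17.8 CPM in cold libraries, an average change of 6.62 ± 0.48 (adjusted p = 1.59e-05). Cpne5, a copine that binds membranes with calcium, went from 0, 0 and 0.140 to 60.7, 74.9 and 48.3 CPM in BAT and from 0.725, 0.294 and 0.399 to 1.70, 41.8 and 22.7 CPM in sWAT. Its thermoneutral BAT level rests on 6 counts, with a ratio of pooled levels of 1100 (95% counting interval 505 to 3000). Dhrs9, a retinol dehydrogenase, rose from 2.71–10.2 to 94.6–160.2 CPM in BAT and from 0.257–0.342 to 16.3–72.1 CPM in sWAT, and its call in both depots was lost with DESeq2. The average change of Dhrs9, 5.80 ± 0.69, was 6.40 without BAT thermoneutral library 3.

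Several of these genes are known mainly from other tissues. Chrna2, a nicotinic acetylcholine receptor subunit, went from 0.642, 0.978 and 1.78 to 19.8, 22.8 and 14.7 CPM in BAT and from 1.33, 0.441 and 0.609 to 9.55, 15.5 and 12.3 CPM in sWAT, a change of 4.10 ± 0.44 and 3.96 ± 0.47. Cend1, a neuronal cell cycle exit protein, rose by 5.33 ± 0.37 and 4.91 ± 0.59. Hephl1, a copper ferroxidase, was at 0.398–1.11 CPM in BAT thermoneutral and 14.1–22.5 CPM in BAT cold, and at 0.704–1.23 and 20.6, 11.6 and 11.8 CPM in sWAT, with sWAT cold library 1 the highest of its group. Ttc25, a dynein-docking protein of cilia, rose by 4.12 ± 0.60 and 4.54 ± 0.72, and its sWAT change was 3.54 (adjusted p = 0.0531) without sWAT cold libraries 2 and 3. Arhgef19, an exchange factor of small GTPases, rose by 4.15 ± 0.67 and 4.07 ± 0.64.

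**Figure D3:**
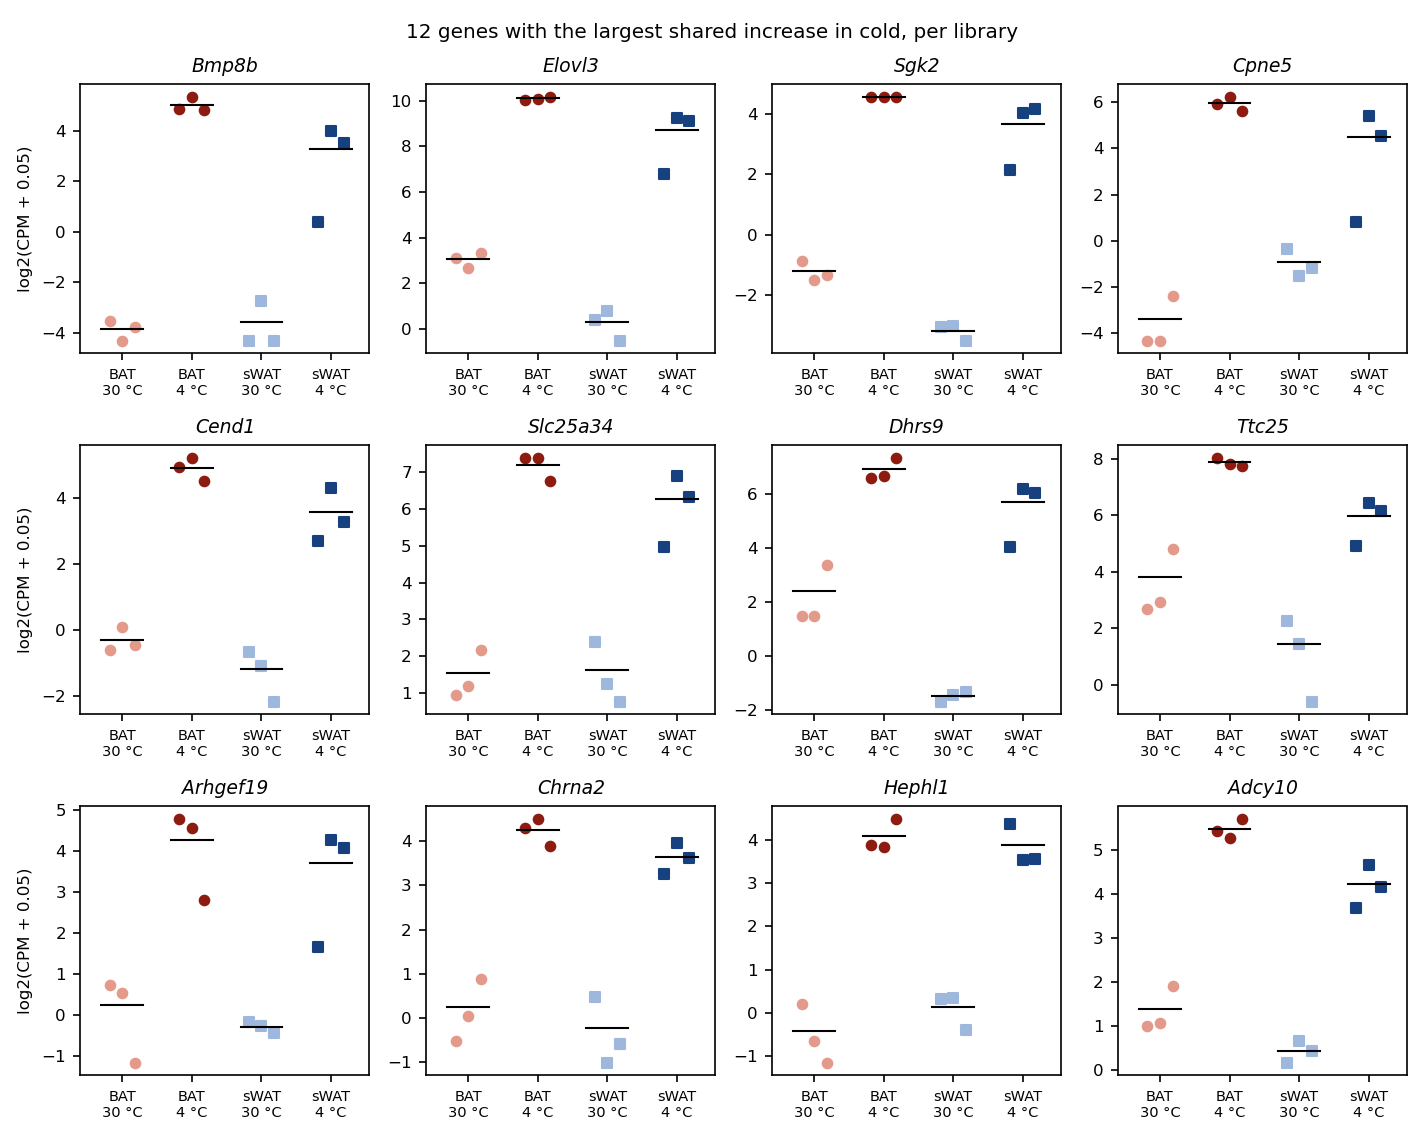
Level of the 12 genes with the largest shared increase, among those with a mean log2 CPM from 3 upwards, in each of the 12 libraries, as log2 of CPM plus 0.05, for BAT (circles) and sWAT (squares) at 30 °C (pale) and 4 °C (dark), with a bar at the group mean. Cold points lie above all thermoneutral points of the same depot in each panel, and sWAT cold library 1, the left point of its group, is often the lowest of the 3.

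Some single regulators of other kinds were also shared. Over all genes 3.95% were higher in both depots, and the 4.55% of the clock list below lies near that share. The 7.69% of the insulin signalling and heat shock lists is 2 genes each, little above it in lists so short. Mtor, the kinase of growth control, went from 95.6–107 to 515–637 CPM in BAT and from 43.5–64.6 to 126–359 CPM in sWAT (2.54 ± 0.26 and 2.18 ± 0.40), and with Insr, the insulin receptor, it was 1 of 2 higher among 26 insulin signalling genes (7.69%). Insr lost its BAT call without BAT cold library 2 or BAT thermoneutral library 1 or 2 (adjusted p up to 0.0715). Bhlhe40, a repressor tied to the clock, was the only shared gene of 22 clock genes (4.55%), at 24.2, 43.8 and 49.1 and 277, 203 and 247 CPM in BAT and 42.7, 29.4 and 20.5 and 185, 105 and 163 CPM in sWAT. Npr3, the clearance receptor of natriuretic peptides, rose by 2.33 ± 0.31 and 2.49 ± 0.36. Of the 32 splicing regulators tested, Elavl3, Rbm47 and Khdrbs3 were higher in both depots (9.38%). Elavl3, an RNA-binding protein best known from neurons, rose by 2.61 ± 0.32 and 3.46 ± 0.47. Khdrbs3, an RNA-binding protein of the STAR family, rose by 1.13 ± 0.26 in BAT and 4.06 ± 0.40 in sWAT, a difference with an adjusted p of 0.0013, and Rbm47 by 1.87 ± 0.36 and 0.97 ± 0.25. Their BAT calls were lost without BAT cold library 2 or BAT thermoneutral library 2, and that of Khdrbs3 also without BAT cold library 1 or BAT thermoneutral library 1 (adjusted p up to 0.114 and 0.0734). Gfm1, the mitochondrial translation elongation factor, was the leading one of 3 higher among 25 genes of mitochondrial gene expression (12.0%), at 2.30 ± 0.38 and 3.60 ± 0.34. Hspa4l, a chaperone of the Hsp110 family, was 1 of 2 higher among 26 heat shock genes (7.69%), at 2.05 ± 0.33 and 3.22 ± 0.39.

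Genes that fell in both depots were fewer and lower in level: their median was 7.35 CPM over the 12 libraries, against 47.3 CPM for the higher genes and 16.0 CPM for all. Mycl (chr4:122995652-123002485), a transcription factor of the Myc family, fell the most by the smaller change of the depots among genes with a mean log2 CPM from 3 upwards, no overlap of groups and no predicted gene model. It was at 10.2, 11.9 and 13.3 CPM in BAT thermoneutral and 0.534, 0.875 and 1.04 CPM in BAT cold libraries. In sWAT, Mycl stood at 20.2, 26.2 and 29.6 CPM in thermoneutral and 5.56, 2.51 and 3.77 CPM in cold libraries. The groups did not overlap in either depot (8.76% of all genes are higher and 7.64% lower in cold without overlap in either), and the change was −3.79 ± 0.36 and −2.67 ± 0.36 (average adjusted p = 9.16e-05). Nnat, an imprinted gene of white fat and brain, fell from 66.0, 63.5 and 25.5 to 9.96, 11.3 and 7.41 CPM in BAT and from 338, 462 and 418 to 113, 71.5 and 89.0 CPM in sWAT (−2.39 ± 0.40 and −2.15 ± 0.31). Both genes kept their call when any single library was left out. Gstt2, a glutathione transferase, fell (−2.07 ± 0.41 in BAT and −2.06 ± 0.27 in sWAT), as did Ddit4, an inhibitor of the mTOR complex (−2.0 ± 0.53 and −3.17 ± 0.52). The BAT calls of both were lost without BAT cold library 1 or 2 or BAT thermoneutral library 1 or 2 (adjusted p up to 0.0655 and 0.143). Tspan4, a tetraspanin, passed narrowly in BAT (−2.28 ± 0.63, adjusted p = 0.0498), and lost that call when any BAT library other than thermoneutral library 3 was left out (adjusted p up to 0.155), and with median-of-ratios scaling or limma-voom. Epb41l4aos, an antisense gene by its name, in counts whose strand setting is not given, fell (−1.99 ± 0.51 in BAT and −4.30 ± 0.48 in sWAT). It lost its BAT call without BAT cold library 1 or 2 or BAT thermoneutral library 1 or 2 (adjusted p up to 0.129).

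Immediate early genes, which respond to a stimulus within minutes, had 0 of 27 tested members higher in both depots and 3 lower (11.1%, against 1.62% of all genes). On average over the depots 15 were lower (against 16.7% of all genes) and 1 was higher, with a median of −1.53 in BAT and −0.40 in sWAT; with a GC offset these were −1.61 and −0.03. Btg2 (chr1:134075170-134079120), an antiproliferative factor, fell from 51.7, 42.6 and 26.5 to 10.6, 9.92 and 8.92 CPM in BAT and from 90.7, 102 and 108 to 39.7, 20.4 and 22.8 CPM in sWAT (−1.99 ± 0.31 and −1.85 ± 0.31), with no overlap between the groups. Arc, a synaptic immediate early gene, fell (−3.13 ± 0.60 in BAT and −2.35 ± 0.36 in sWAT), and its BAT call was lost without BAT cold library 1 or BAT thermoneutral library 1 or 2 (adjusted p up to 0.0564). Egr3, a zinc finger factor, fell (−3.40 ± 0.58 in BAT and −1.63 ± 0.47 in sWAT), and sWAT cold library 1 stood at 6.89 CPM against 2.21 and 2.17 CPM in libraries 2 and 3. Its sWAT call was lost without sWAT cold library 2 or 3 or sWAT thermoneutral library 2 (adjusted p up to 0.0674), and without sWAT cold libraries 2 and 3 together (−0.74, adjusted p = 0.183).

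Of the 12 genes of the plot of shared decreases, 5 are known from leukocytes, a grouping made after their values were seen: Cd83, Cytip, Lat2, Trbc2 and Ccl5. Cytip, an adhesion regulator of lymphocytes, was at 2.89, 2.43 and 2.41 CPM in BAT thermoneutral and 0.623, 0.452 and 0.637 CPM in BAT cold libraries. The levels of Cytip in sWAT were 68.2, 87.4 and 114 CPM in thermoneutral and 36.2, 12.9 and 12.4 CPM in cold libraries (−2.12 ± 0.34 and −2.12 ± 0.46). Trbc2, a constant region of the T cell receptor, was low in BAT, at 1.14, 0.978 and 1.43 CPM in thermoneutral and 0.311, 0.271 and 0.235 CPM in cold libraries, and fell from 95.0, 82.5 and 104 to 28.7, 18.3 and 19.0 CPM in sWAT. Its near-identical copy Trbc1 makes its count uncertain. Lat2, an adaptor of B and mast cells, fell (−2.10 ± 0.36 in BAT and −2.28 ± 0.36 in sWAT). So did Cd83, a surface marker of mature dendritic cells (−2.31 ± 0.49 and −2.40 ± 0.41), and Ccl5, a chemokine of T cells (−2.04 ± 0.48 and −1.97 ± 0.45). The BAT calls were lost without BAT cold library 2 for all 5 of them, without BAT cold library 1 for Lat2, Trbc2 and Ccl5, without BAT thermoneutral library 1 or 2 for Cd83 and Ccl5, and without BAT cold library 3 for Ccl5.

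The summed markers of lymphocytes and of macrophages were lower in each sWAT cold library than in any sWAT thermoneutral library. Those of neutrophils, mast cells and eosinophils overlapped, at 25.7–47.15 CPM in sWAT thermoneutral and 21.8–40.76 CPM in sWAT cold libraries. In BAT these were at 25.5–38.85 CPM at thermoneutrality and 18.64–22.51 CPM in cold. The 22 lymphocyte markers summed to 1503–2127 CPM in sWAT thermoneutral and 1475, 496.5 and 430.5 CPM in sWAT cold libraries 1, 2 and 3, but to 20.2–30.6 CPM in BAT thermoneutral and 24.6–31.7 CPM in BAT cold libraries. The 20 macrophage markers summed to 1098–1691 CPM in sWAT thermoneutral and 349.8–564.8 CPM in sWAT cold, and to 140.8–211.6 CPM and 130.2–147.6 CPM in BAT at thermoneutrality and in cold. None of the lymphocyte and macrophage markers was at 0 throughout a group. In BAT, the summed lymphocyte markers and the summed macrophage markers overlapped between temperatures. Taken marker by marker, the median log2 fold change was −1.05 in BAT and −1.28 in sWAT for the lymphocyte list, against −0.03 and 0.12 over all genes. Of 18 tested, 2 were lower in BAT and 9 in sWAT, where 4.99% and 21.6% of all genes were lower. For the macrophage markers the median was −0.28 and −0.52, with 0 and 8 of 19 lower. Cd3e, a chain of the T cell receptor complex, is given here outside the rule for naming genes. In BAT it stood at 0.820, 0.503 and 0.655 CPM in thermoneutral and 0.311, 0.181 and 0.302 CPM in cold libraries. It did not pass the test there (−1.27 ± 0.43, adjusted p = 0.0917), and the sum of its list did not fall in BAT. Of the lymphocyte markers, 14 of 22 were lower on average (against 16.7% of all genes) and 1 of 18 tested in all 3 fits, Cd27, in both depots (5.56%), and of the macrophage markers 8 of 20 were lower on average and 0 of 19 in both. Cd27, a costimulatory receptor, fell (−2.27 ± 0.56 in BAT and −1.67 ± 0.55 in sWAT), and its call was lost when any library other than BAT cold library 3 or sWAT cold library 1 was left out. Without sWAT cold libraries 2 and 3 its sWAT change was −0.67 (adjusted p = 0.197). Without sWAT cold library 1 its average change of −1.90 ± 0.41 was −2.59. The part of cell numbers in these decreases was not tested.

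**Figure D4:**
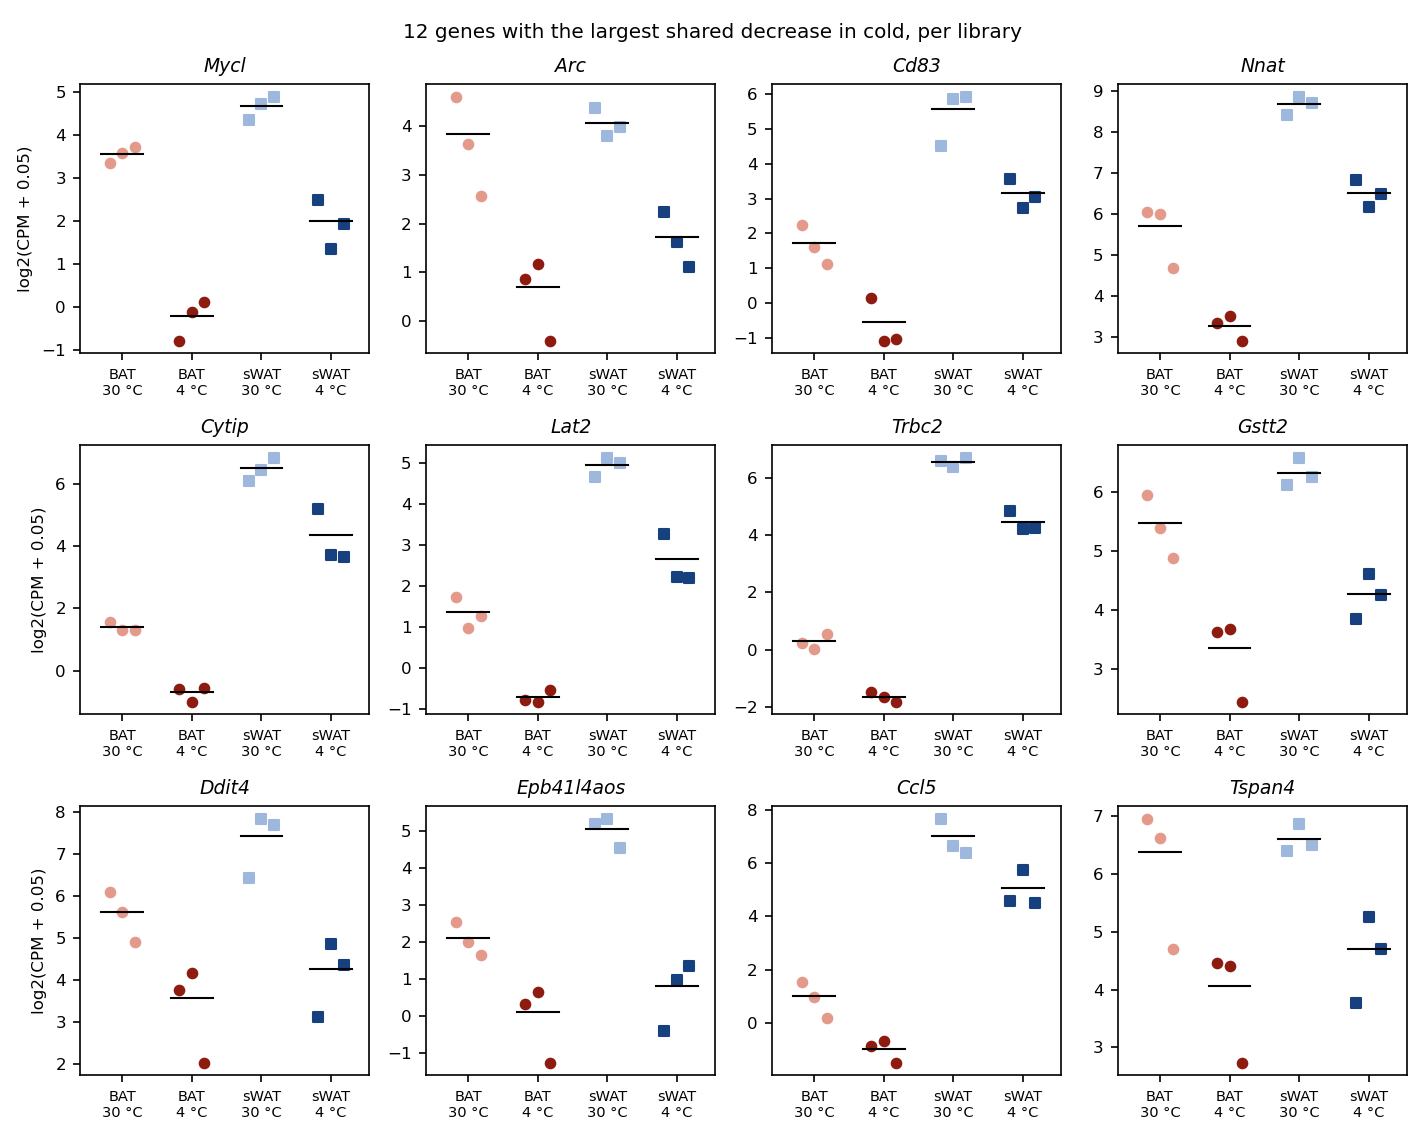
Level of the 12 genes with the largest shared decrease, among those with a mean log2 CPM from 3 upwards, in each of the 12 libraries, as log2 of CPM plus 0.05, for BAT (circles) and sWAT (squares) at 30 °C (pale) and 4 °C (dark), with a bar at the group mean. Cold points lie below all thermoneutral points of the same depot in each panel, and Cytip, Lat2, Trbc2 and Ccl5 are lower in BAT than in sWAT at either temperature.

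Some lists had 0 genes called in both depots, a count that in short lists lies near the shares over all genes (3.95% higher and 1.62% lower). Of 55 subunits of the respiratory chain encoded in the nucleus, 0 were higher or lower in both depots, and 7 were higher on average, where 14.1% of all genes were. Uqcrc2, a complex III subunit, had log2 fold changes of 0.94 ± 0.35 in BAT (adjusted p = 0.112) and 3.47 ± 0.35 in sWAT (adjusted p = 0.000308). Their median was 0.03 in BAT, −0.15 there with upper quartile scaling, and 0.95 in sWAT. Of the 13 mitochondrially encoded genes 0 were called in both, with a median of 0.98 in BAT and 7.80 in sWAT, where the thermoneutral libraries hold almost none of these transcripts. Atp5a1, an ATP synthase subunit, was near the threshold in BAT (1.12 ± 0.37, adjusted p = 0.0841) and rose in sWAT (1.88 ± 0.50, adjusted p = 0.0141). Other lists with 0 genes in both depots were the 40 extracellular matrix genes, 32 cell cycle genes, 19 beige and brown lineage markers and 7 RNA-binding genes inducible by cold. The lineage markers with the smallest average p were Epsti1, which fell in sWAT (−2.02 ± 0.34) and gave −1.27 ± 0.41 in BAT (adjusted p = 0.0781), and Mpzl2, which rose in sWAT (2.39 ± 0.28) and gave 0.73 ± 0.34 in BAT (adjusted p = 0.201). Among the RNA-binding genes, Cirbp and Rbm3, named for their induction by cold in cultured cells, had log2 fold changes of −0.89 ± 0.32 and −1.46 ± 0.43 in BAT (adjusted p = 0.101 and 0.0626) and of −2.28 ± 0.31 and −0.10 ± 0.42 in sWAT (adjusted p = 0.000835 and 0.854). Ribosomal protein genes had 24 of 63 lower on average (against 16.7% of all genes) and 1, Rpl9, in both depots (1.59%, against 1.62% of all genes). Rpl9 fell from 108, 66.5 and 31.3 to 18.3, 15.3 and 15.2 CPM in BAT and from 103, 59.2 and 109 to 27.5, 20.5 and 45.3 CPM in sWAT, and its BAT call was lost without BAT cold library 1 or 2 or BAT thermoneutral library 1 or 2 (adjusted p up to 0.0813).

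The size of the shared change differed between the depots for 88 of the 561 higher genes (15.7%) and 12 of the 231 lower genes (5.19%), against 25.1% of all 16365 genes tested for that difference. Among the higher genes 71 changed more in sWAT and 17 more in BAT, and among the lower genes 4 and 8. A test that misses the threshold does not show equal changes. The sets were chosen for passing with the same sign in both depots, which itself disfavours a difference, so these shares are a description. Levels were also set side by side, as a description: in 317 of the 561 higher genes (56.5%) all 3 cold sWAT libraries lay above all 3 thermoneutral BAT libraries, in 0 they lay below, and in 244 the groups overlapped, where 17.7% of all genes lay above and 14.2% below. For the lower genes, 22 lay above, 128 below and 81 overlapped. Both sets were chosen by cold against thermoneutral in these same libraries, so an excess over the shares of all genes is partly built in. Within cold sWAT, library 1 was the lowest of the 3 in 464 of the 561 higher genes (82.7%, against 44.3% of all genes). It lay above all 3 thermoneutral sWAT libraries in 543 of them (96.8%), which the choice of genes on these same libraries largely fixes.

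The shared set depended on single BAT libraries. In every one of the 12 fits that left out 1 library, 155 of the 561 higher genes and 20 of the 231 lower genes kept their call, and none changed direction. The counts were lowest without BAT thermoneutral library 2 for higher genes (205) and without BAT cold library 2 for lower genes (43). They were 251 and 48 without BAT cold library 1, 217 higher without BAT cold library 2, 224 and 62 without BAT thermoneutral library 1, and 50 lower without BAT thermoneutral library 2. Without BAT thermoneutral library 3 they were 675 and 378, without BAT cold library 3 569 and 212, and without both 1223 and 902. BAT cold library 3 stood apart from libraries 1 and 2 of its group. Mitochondrially encoded genes took 53.8% of its counts against 24.4 and 20.0%, and its GC slope was −0.743 against 0.214 and 0.293. Its Spearman correlation with each was 0.9345, against 0.9939 between those 2. The part of the libraries numbered 3 in the lost BAT calls was not tested. Of the genes changed in both depots that are described here, 78 were tallied, without Mcee and Slc25a44. Of the 78, 48 kept their call in every such fit, among them Ucp1, Elovl3, Bmp8b, Adcy3, Gk, Hk2, Sqle, Mycl and Nnat. Mcee and Slc25a44 each kept it in 8 of the 12 fits. Upper quartile scaling moved the median of all genes on average from −0.03 to −0.11. No gene of either set was called in both depots with the opposite sign under any alternative run.

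**Figure D5:**
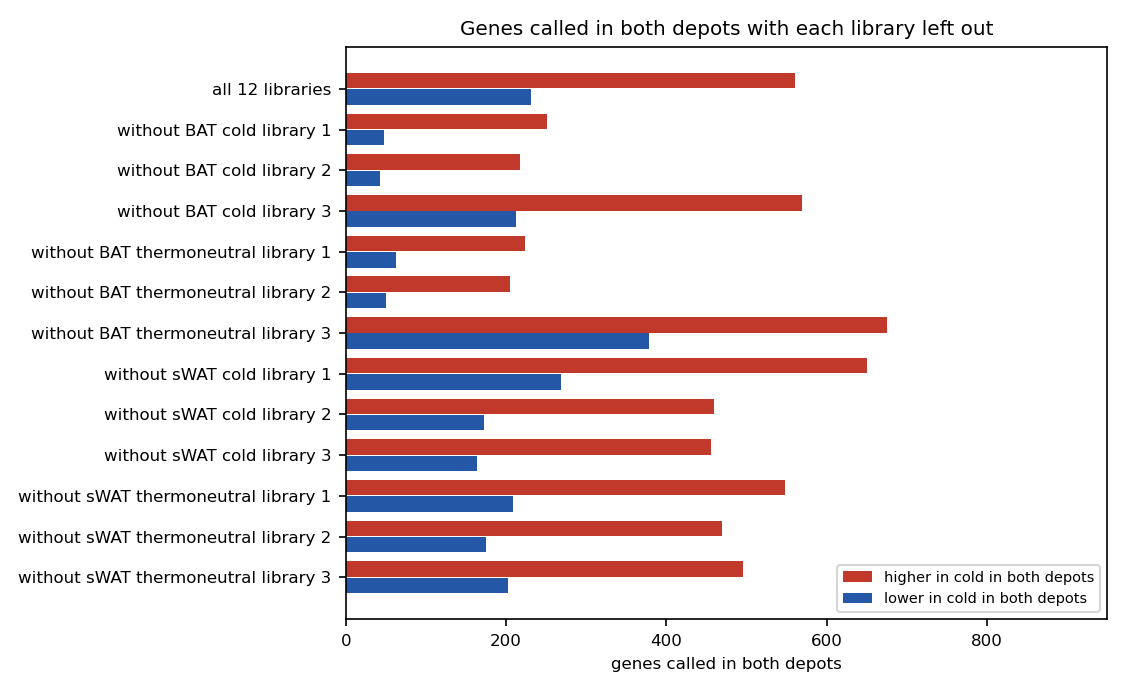
Number of genes called in both depots with all 12 libraries (top) and with each library left out in turn, for genes higher (red) and lower (blue) in cold. Leaving out BAT cold library 1 or 2 or BAT thermoneutral library 1 or 2 gives 205 to 251 higher genes, and leaving out any other library gives at least 456.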

How the data were processed

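RNA from 12 fat samples was read as 100 nt pairs after library preparation from 1000 ng of total RNA with a TruSeq protocol, per the labels' protocols. The authors deposited raw counts for 23163 gene symbols, and 0 columns remained unmapped. STAR, DESeq2 and the mm10 build are named in the submitters' processing notes. The sources used here do not give the counting tool, annotation or strand setting. Of 90 described genes tallied, 24 have exons that overlap another gene of the table on the other strand, and are uncertain to that extent. The names of 2 columns, of BAT cold library 1 and of sWAT cold library 2, start with Merged, which no source explains. Counts were fitted with edgeR 4.0.16 (glmQLFit with robust=TRUE, glmQLFTest, limma 3.58.1, R 4.3.3) after filterByExpr and TMM scaling, with Benjamini-Hochberg adjustment and a threshold of 0.05 without a minimum fold. The average effect used tissue plus temperature over 12 libraries, each depot alone had its own filter, scaling and spread, and the difference of responses came from 4 group means. Standard errors are the log2 fold change divided by the square root of F. CPM were scaled by total and TMM factor, the latter from all 12 libraries; shares of counts have Wilson 95% intervals at most 0.0345 percentage points wide, for counting error only. Positions and exon overlaps came from GENCODE M21.

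Named genes are 11 taken whatever their values, the 12 higher and 12 lower with the largest smaller change of the depots (mean log2 CPM from 3 upwards, no overlap of CPM in either depot, no predicted gene models), up to 4 members changed in both depots from each of 47 lists (up to 2 where none did), and genes of opposite direction, which are not reported here; some other genes the rule takes are left out too. The members and lists were chosen with earlier results of these data known, so no list is independent evidence of its direction. The test was also run on simulated counts with known changes. Alternatives were RLE and upper quartile scaling, totals without mitochondrially encoded and ribosomal protein genes, no filter, 1 CPM in 3 libraries, DESeq2 1.42.0, limma-voom, robust=FALSE, 4 group means, the experiment number as a block, a GC offset, an adjusted p of 0.01, a minimum log2 fold change of 1, and libraries left out; leaving out sWAT cold libraries 2 and 3 was added after seeing the data. Library pairs were checked for duplicates: 0 of 66 were identical, and Spearman correlations within groups were 0.908 to 0.994.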

Additional observations from a re-analysis of the deposited data

Results flagged for a closer look

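The difference between the depots was the sWAT response minus the BAT response, in log2, with edgeR's test adjusted over all genes. It passed 0.05 for 16 of 90 described genes, a tally without Mcee and Slc25a44, against 25.1% of all genes. Of the 16, 9 are among the 78 tallied genes changed in both depots. Of those 9, the change was larger in sWAT for Dio2 (5.97, adjusted p = 0.000356), Ppargc1a (3.61, 0.00383), Khdrbs3 (2.99, 0.0013), Dhrs9 (2.87, 0.025), Gk (2.37, 0.0122), Elovl6 (2.24, 0.00435) and Pcca (1.56, 0.0252). Cpne5 rose more in BAT (−4.50, 0.0383) on 6 thermoneutral BAT counts, and Epb41l4aos fell more in sWAT (−2.24, 0.0364). Of the genes not called in both depots, the difference was positive for Cidea (3.00, 0.00585), Lep (2.71, 0.00803), Uqcrc2 (2.59, 0.00301), Mpzl2 (1.72, 0.0148), mt-Nd2 (5.47, 0.00347) and mt-Nd4l (5.88, 0.00132), and negative for Cirbp (−1.33, 0.0382). Both mitochondrially encoded genes stood at 16.5 to 84.9 CPM in the sWAT thermoneutral libraries and at 1602 CPM or more in each other library.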

How the results depend on the processing

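No alternative reversed the average change of any of the 90 tallied genes. Of their 2515 values under alternatives, 2478 stayed on the same side of the threshold, 7 fell short of it and 30 newly passed. The genes of opposite direction, which are not reported here, are not among the 90. The counts of genes moved more. Genes higher and lower on average, 2307 and 2727, were 3677 higher with 4 group means, 1123 and 1216 at an adjusted p of 0.01, 1534 higher with a minimum log2 fold change of 1, 1637 lower without both Merged libraries, and 1213 and 796 without sWAT cold libraries 2 and 3; leaving out 1 library gave 1647 to 2792 and 1684 to 3121, the lowest for lower genes without sWAT cold library 2. Genes higher and lower in both depots, 561 and 231, were 970 and 436 with a GC offset (489 and 153 of the same genes), 158 and 19 at 0.01, 1223 and 902 without both BAT libraries numbered 3, 219 and 36 without both Merged libraries, 313 and 123 without sWAT cold libraries 2 and 3, 2202 and 2160 by sign alone, 1206 and 1051 by CPM that did not overlap (8.76 and 7.64% of all genes do not), and, for lower genes, 362 with upper quartile scaling and 439 with DESeq2; leaving out 1 library gave 205 to 675 and 43 to 378. Of both sets, 128 and 10 genes kept their call in all 26 fits with another method or other libraries, not counting the threshold of 0.01, the minimum fold change and the fit without sWAT cold libraries 2 and 3. Genes of both sets whose size differed, 100, were 202 with DESeq2, 179 with a GC offset, 8 at 0.01, 362 without both BAT libraries numbered 3, 19 without both Merged libraries, 30 without sWAT cold libraries 2 and 3, and 26 to 141 without 1 library. The threshold of 0.01 and the fits with fewer libraries differ by their construction; for the rest the cause was not tested.

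Experiment numbers did not pair the libraries: deviations of same-numbered libraries had correlations of −0.553 to 0.655 over 18 pairs, 8 of them over 0.1, and 4 of 12 libraries correlated best with their own number. With the number as a replicate block, 650 genes were higher and 411 lower in both depots, 2001 and 2408 on average, and 167 differed in size; with the block and a GC offset these were 970 and 427 in both depots, 172 in size. Of the genes described, Ckb and Gpr3 were not called in both depots with the block. Depth limits Bmp8b, Cpne5, Fgf21, Gpr3, Fgf9 and Sgk2, which had 2 to 16 counts in a thermoneutral group.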
